A study of Mus musculus with 60 samples.

Results

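Primary mouse hepatocytes that lack the hepatocyte growth factor (HGF) receptor Met were compared with control hepatocytes for how their mRNA levels changed over 12 h with HGF. The quantity of interest was the difference of the responses, (KO 12 h minus untreated KO) minus (WT 12 h minus untreated WT), where a response is the log2 change between 12 h and untreated cells of 1 genotype. KO cells carried Alb-Cre +/- and Met Fl/Fl on a 129SV/C57BL6 background, so that Cre made from the albumin promoter deletes Met in hepatocytes. WT cells were Cre controls on C57BL, so strain and genotype differed together and cannot be told apart. Cells came from male mice of 9 to 10 weeks. They were plated with serum, moved to medium without serum and given 50 ng/ml HGF on the next day. The protocol gives this dose, while another label gives the same figure in nM. For the 12 h samples that label also gives a time of 0.5 h, where the sample titles say 12 h, and the titles were used. The 3 replicates of a group were cultures from separate mice. These 4 groups comprise 24 of the 60 arrays, 12 of the 30 replicates and 4 of the 10 groups of the series. The 12 h cultures had no untreated partner of their own age among the samples used, and a response therefore joins the effect of HGF with that of 12 h more in the dish. The difference between the genotypes' responses is thus a difference in what 12 h with HGF in culture did.

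HGF is a secreted protein of the nonparenchymal cells of the liver, and Met is its receptor tyrosine kinase. Activated Met recruits the adaptors Gab1 and Grb2 and drives the Ras-ERK and PI3K-Akt pathways. In hepatocytes these pathways are known for migration, spreading, survival and entry into the cell cycle, and mice without hepatocyte Met regenerate the liver poorly after injury.

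Each replicate was hybridised on 2 arrays of opposite dye, with a pool of WT hepatocyte RNA as the other channel, and the mean of both log2 ratios to this reference is called its value. Arrays held 19151 to 21511 values for 21997 probes, and 18155 probes (82.5%) were tested, standing for 12238 named genes. Precision was limited by the number of replicates. The median standard error was 0.254 for the difference of the responses, 0.181 for the KO response and 0.178 for the WT response. The arrays of opposite dye correlated negatively within all 12 replicates (r = -0.55 to -0.06 over probes). Across probes the difference of the responses on Cy5 arrays and on Cy3 arrays correlated at r = -0.24. The WT response, on which the lost and kept classes below rest, also correlated at -0.24 between the dyes. This r was 0.11 for the KO response, 0.12 for KO against WT at 12 h and -0.19 for KO against WT untreated. Of the pairs of arrays with the same dye, 9 had r under -0.3, and all 9 held the Cy5 array of WT 0 h replicate 3. The direction of that array is not settled, and results are given with its sign turned too. With the sign turned, r between the dyes was -0.05 for the difference and -0.0004 for the WT response. The direction of the ratios is not stated for any array. All ratios were read as sample over reference, and every result below rests on that reading. With the sign of all Cy3 arrays turned, as if each ratio were Cy5 over Cy3, limma called 1 difference of the responses, 1 KO response and 815 WT responses, with 0 lost and 0 kept probes and a median ratio of KO to WT response of 0.128. Untreated WT replicates spread most, with a median SD of 0.241 over probes, against 0.137 to 0.157 in the other 3 groups. Array numbers fall into sets parted by gaps. Both 12 h groups lay on set C alone. Replicate 3 lay on set A in untreated KO and on set B in untreated WT. Time and array set are thus partly joined. Median same-dye r was 0.13 (Cy5) and 0.04 (Cy3) for KO 0 h replicate 3. It was -0.39 and -0.03 for WT 0 h replicate 3, and 0.17 to 0.72 for all others. Array set as a term gave 134 called differences, against 9 without it.

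The single tested Met probe did not show the deletion. It read 0.40 and 0.43 in KO at 12 h (n = 2), 0.33, 0.31 and -0.04 in untreated KO, 0.35, 0.43 and 0.57 in WT at 12 h, and 0.26 and 0.19 in untreated WT (n = 2). The groups overlapped between the genotypes at 12 h, and the difference of the responses was -0.01 ± 0.27 (standard error, as after every log2 difference below). Whether the probe falls inside the deleted stretch of Met was not determined. Alb, the main secreted protein of hepatocytes and the gene whose promoter drives Cre, had a difference of -0.13 ± 0.13 (adjusted p = 0.963).

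Fewer probes passed the test for the KO response than for the WT response, except with arrays scaled to 1 spread, where 211 passed in KO and 192 in WT. A call is a Benjamini-Hochberg adjusted p under 0.05 from limma across all 18155 probes. In KO, 23 probes were called (0.127% of those tested), 4 higher (0.022%) and 19 lower (0.105%) at 12 h. In WT, 819 probes were called (4.51%), 364 higher (2%) and 455 lower (2.51%). The difference of the responses was called for 9 probes (0.0496%), 1 with a higher response in KO (0.00551%) and 8 with a lower one (0.0441%). At an unadjusted p under 0.05 the difference had 1106 probes (6.09%). With the spread taken from only the 12 replicates of these groups, limma called 1 difference, that of Apbb2. With each replicate weighted by its group's spread it called 13, of which 8 were among the 9, and with the sign of the doubted array turned it called 7, of which 4 were among the 9.

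Responses were sorted by these calls. A response was lost where WT and the difference were called and KO was not, which took 6 probes (0.733% of those called in WT). It was kept where both genotypes were called in the same direction and the difference was not, which took 14 probes (1.71%). It was weakened where WT, the difference and, in the WT direction, KO were all called, and 0 probes met this. The other 799 probes (97.6%) could not be placed by the tests. By size alone, 374 of the 819 probes had a KO response below the WT response divided by 3, 142 had one above the WT response divided by 1.5, and 303 lay between. The KO response had the sign of the WT response in 726 of the 819 (88.6%), and the median ratio of KO to WT response was 0.372, with quartiles of 0.152 and 0.582. The ratio was lower for genes higher at 12 h in WT (0.253, 364 probes) than for genes lower at 12 h in WT (0.496, 455 probes). WT responses in this set were selected for size and KO responses were not, which by itself makes the ratio small. In the 23 probes chosen by the KO call, 19 had the same sign in WT and the median ratio of WT to KO response was 0.895. No test was made of these ratios.

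**Figure D1:**
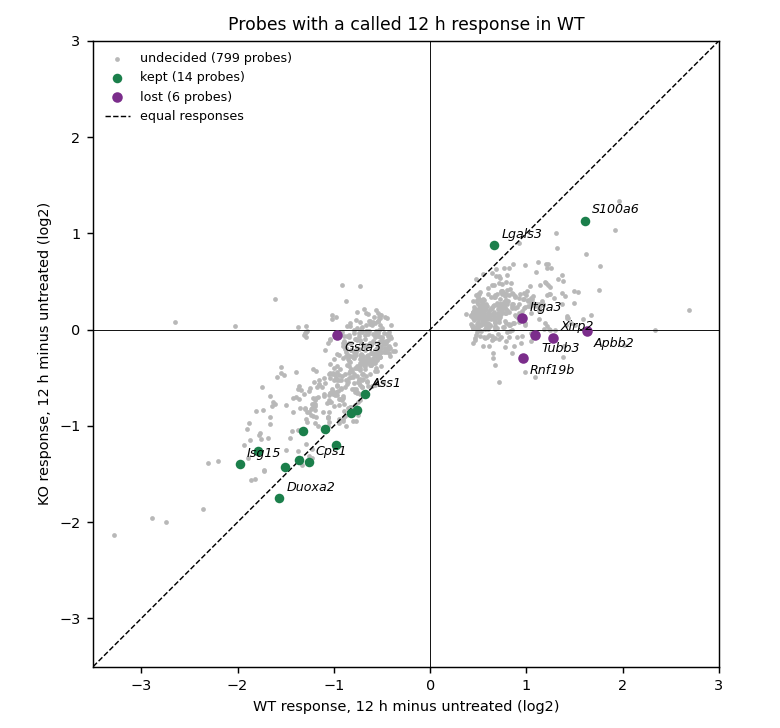
KO response against WT response (log2, 12 h minus untreated) for the 819 probes called in WT, with 6 lost, 14 kept and 799 undecided probes and a dashed line of equal responses. Lost genes lie near a KO response of 0, kept genes lie near the dashed line, and most other probes lie between 0 and the line.

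The lost responses were 5 genes that rose in WT and 1 that fell. The genes that rose are Apbb2, an adaptor that binds the amyloid precursor protein, Xirp2, an actin-binding protein best known from striated muscle, Rnf19b, a ubiquitin ligase, Tubb3, a beta tubulin best known from neurons, and Itga3, the alpha subunit of a laminin-binding integrin. The gene that fell is Gsta3, a glutathione transferase. None of the 6 had a called KO response, and none differed between untreated KO and untreated WT cells in a way that passed the test, where 7 probes did (0.0386%).

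Apbb2 (probe 1228235_1) read -0.13, -0.06 and 0.19 in KO at 12 h, 0.15, -0.05 and -0.06 in untreated KO, 1.16, 1.08 and 1.24 in WT at 12 h, and -0.28, -0.53 and -0.59 in untreated WT. The WT replicates at 12 h lay above every other replicate, and the KO times overlapped. Untreated WT lay below every KO replicate, with a mean of -0.47 against 0.02 in untreated KO. The difference of the responses holds this untreated gap too. The response was -0.02 ± 0.16 in KO and 1.63 ± 0.16 in WT, a 3.09-fold rise, and the difference was -1.64 ± 0.22 (adjusted p = 0.00212). A second Apbb2 probe (1224177_1) moved the same way, with a response of 0.06 ± 0.11 in KO and 0.82 ± 0.11 in WT and a difference of -0.75 ± 0.16 that did not pass (adjusted p = 0.0908). Leaving out any of the 12 replicates did not end the Apbb2 call, but turning the sign of the doubted array did (-1.21, adjusted p = 0.268), as did Cy3 arrays alone (-0.84, adjusted p = 0.587).

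Xirp2 read -0.08, 0.02 and 0.02 in KO at 12 h, 0.13, 0.13 and -0.05 in untreated KO, 1.57, 1.30 and 0.75 in WT at 12 h, and -0.10, -0.34 and 0.22 in untreated WT. WT at 12 h was above all other groups, and KO did not leave the level of untreated cells. The response was -0.08 ± 0.15 in KO and 1.28 ± 0.15 in WT, and the difference was -1.36 ± 0.21 (adjusted p = 0.00876). It stayed called without each of the 12 replicates in turn and with the doubted array turned (-1.55, adjusted p = 0.000433), but not on the 12 replicates alone (adjusted p = 0.265), with arrays scaled to 1 spread (-1.02, 0.212), with single arrays and a dye term (0.0998), with dye profiles removed (-1.25, 0.0537) or on Cy3 arrays (-0.81, 0.586).

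Tubb3 read 0.20, 0.30 and 0.30 in KO at 12 h, 0.35, 0.41 and 0.23 in untreated KO, 1.17, 1.22 and 1.29 in WT at 12 h, and 0.43, 0.13 and -0.14 in untreated WT. KO at 12 h lay among the untreated replicates and WT at 12 h clear above them. The response was -0.06 ± 0.14 in KO and 1.08 ± 0.14 in WT, with a difference of -1.15 ± 0.20 (adjusted p = 0.0234). The call ended without KO 0 h replicate 1 or 2, WT 0 h replicate 3 or WT 12 h replicate 2 or 3, with adjusted p up to 0.0929 and a value of -1.29 to -1.004. With arrays scaled to 1 spread it ended too (-0.79, adjusted p = 0.455).

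Rnf19b read -0.63, -1.07 and -0.56 in KO at 12 h, -0.50, -0.45 and -0.43 in untreated KO, 0.31, 0.43 and 0.82 in WT at 12 h, and -0.38, -0.39 and -0.56 in untreated WT. Every KO replicate at 12 h was below the untreated KO replicates, and every WT replicate at 12 h was above all others. The response was -0.29 ± 0.15 in KO, which did not pass, and 0.96 ± 0.15 in WT, with a difference of -1.25 ± 0.21 (adjusted p = 0.0197). The call ended without any 1 of the KO 0 h replicates, WT 0 h replicate 3 or WT 12 h replicate 3 (adjusted p up to 0.0799, value -1.36 to -1.09), and with the doubted array turned (-0.98, adjusted p = 0.205).

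Itga3 read 0.14, 0.07 and 0.23 in KO at 12 h, -0.01, -0.01 and 0.09 in untreated KO, 0.80, 0.67 and 0.75 in WT at 12 h, and -0.26, -0.09 and -0.30 in untreated WT. WT at 12 h was the highest group, and the 2 KO times overlapped. Untreated WT lay below every KO replicate, with a mean of -0.22 against 0.03 in untreated KO, and the difference holds this gap too. The response was 0.12 ± 0.11 in KO and 0.96 ± 0.11 in WT, and the difference was -0.83 ± 0.16 (adjusted p = 0.0331). This was the least settled of the 6, called without KO 12 h replicate 3 or WT 0 h replicate 2 and not called without any of the other 10 replicates (adjusted p up to 0.114, value -0.90 to -0.79), nor with the doubted array turned (-0.54, adjusted p = 0.609). The call also ended with each replicate weighted by its group's spread (adjusted p = 0.104 by limma).

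Gsta3 read 0.87, 0.35 and 0.73 in KO at 12 h, 0.71, 0.65 and 0.77 in untreated KO, -0.48, -0.40 and -0.42 in WT at 12 h, and 0.44, 0.43 and 0.73 in untreated WT. WT at 12 h was alone below 0, and the other 3 groups overlapped. The response was -0.06 ± 0.12 in KO and -0.97 ± 0.12 in WT, a 1.96-fold fall, and the difference was 0.91 ± 0.16 (adjusted p = 0.0323). The call ended without 9 of the 12 replicates, namely any of KO 0 h or WT 12 h, KO 12 h replicate 1 or 3, or WT 0 h replicate 3 (adjusted p up to 0.095, value 0.80 to 1.06). With the doubted array turned the value was 0.83 (adjusted p = 0.0497), and with that array left out it was 1.07 and no longer called (adjusted p = 0.0562), as with arrays scaled to 1 spread (0.82, adjusted p = 0.635).

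**Figure D2:**
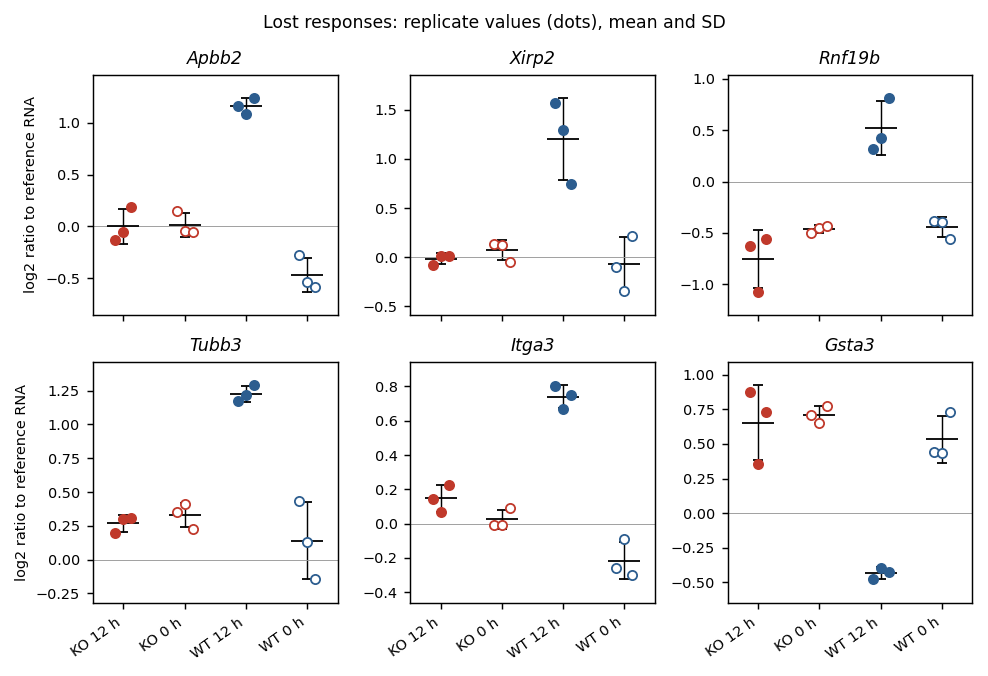
Replicate values (log2 ratio to reference RNA) of the 6 lost genes in KO 12 h, KO 0 h, WT 12 h and WT 0 h, with the group mean as a line and the SD as bars. WT at 12 h stands apart in each panel, above the others for 5 genes and below them for Gsta3. For Apbb2 and Itga3, untreated WT also lies apart, below both KO groups.

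The 250 bases before the start sites of the lost genes were searched on both strands for the AP-1 site TGANTCA, the binding sequence of Fos and Jun, the antioxidant element TGACNNNGC, the binding sequence of Nrf2, the E-box CACGTG, bound by Myc, and the core of the interferon-stimulated response element, which is GAAA, 2 bases of any kind and GAAA again. AP-1 and antioxidant matches can overlap each other. Xirp2 held the AP-1 site, 101 to 107 bases before the start, and Gsta3 held the antioxidant element, 113 to 121 bases before it. Both sequences (RefSeq, GRCm38.p6, 5′ to 3′) are shown as the promoters of lost genes with a match to AP-1 or the antioxidant element, with the match in capitals.
Xirp2 (chr2:67445752-67446001, plus strand): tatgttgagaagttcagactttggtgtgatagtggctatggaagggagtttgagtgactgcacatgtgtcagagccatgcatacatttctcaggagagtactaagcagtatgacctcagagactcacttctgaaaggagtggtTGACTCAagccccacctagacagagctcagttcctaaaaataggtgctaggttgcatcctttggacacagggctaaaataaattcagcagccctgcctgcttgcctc
Gsta3 (chr1:21240335-21240584, plus strand): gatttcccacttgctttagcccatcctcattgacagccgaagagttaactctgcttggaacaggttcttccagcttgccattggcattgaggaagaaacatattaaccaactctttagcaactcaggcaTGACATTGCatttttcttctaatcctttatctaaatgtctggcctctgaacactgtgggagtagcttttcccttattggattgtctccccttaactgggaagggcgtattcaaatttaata
Of the 6 lost genes, 1 held AP-1, 1 the antioxidant element, 1 (Itga3) the interferon core and 0 the E-box. Of the 11 kept genes with a promoter sequence, described further on, 3 held AP-1 (27.3%) and 2 the antioxidant element (18.2%). Over the 9676 tested genes with a promoter sequence, 7.06% held AP-1, 13.2% the antioxidant element, 9.00% the E-box and 3.13% the interferon core. A match is a run of letters and not evidence of binding, and 6 genes are too few to set against these shares.

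Mean levels at 24 h did not enter the contrasts that chose the lost genes. The spread of the 24 h replicates did enter that choice, through the pooled estimate of the spread from all 10 groups. The 24 h calls use the same estimate. These replicates also share the reference RNA with the 12 h groups, and whether they came from the same mice is not known here. KO against WT at 24 h was called for all 6, each in the direction of 12 h, where 684 of 18075 probes were called (3.78%), 366 higher (2.02%) and 318 lower (1.76%) in KO. The differences between the genotypes at 24 h were -1.87 ± 0.15 for Xirp2 (adjusted p = 2.64e-08), -1.30 ± 0.17 for Apbb2 (8.13e-05), -1.19 ± 0.15 for Rnf19b (2.06e-05), -0.77 ± 0.14 for Tubb3 (0.00148), -0.65 ± 0.11 for Itga3 (0.000632) and 2.18 ± 0.12 for Gsta3 (1.19e-11). With each replicate weighted by its group's spread, 4 of the 6 were called at 24 h, and Tubb3 (adjusted p = 0.0724) and Itga3 (0.169) were not. Without KO 24 h replicate 2, a replicate of high noise in earlier results, all 6 were called (572 probes in all, 3.17%).

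Over all times the 6 genes took different courses. Gsta3 in KO averaged 0.71, 0.70, 0.74, 0.65 and 0.85 at 0, 0.5, 2, 12 and 24 h, and in WT 0.53, 0.51, 0.03, -0.43 and -1.34, so that WT fell at each step after 0.5 h and KO stayed level. Tubb3 in KO averaged 0.33, 0.31, 0.02, 0.27 and -0.62 at the same times, and in WT 0.14, 0.51, 0.89, 1.23 and 0.15. WT Tubb3 was highest at 12 h and was back near its untreated level at 24 h. KO against WT was already called at 2 h for Tubb3 (-0.87 ± 0.14, adjusted p = 0.00215) and Gsta3 (0.71 ± 0.12, adjusted p = 0.00232), where 73 of 17143 probes were called (0.426%), and for none of the other 4. Rnf19b and Itga3 did not overlap between the genotypes at 2 h either (-0.51 ± 0.15, adjusted p = 0.165, and 0.43 ± 0.11, adjusted p = 0.0856). Nor did Apbb2, with 2 replicates in each genotype (0.0025 and 0.17 in KO, -0.09 and -0.23 in WT). The Itga3 and Apbb2 values had the opposite sign to those at 12 h. At 0.5 h Tubb3, Gsta3, Rnf19b and Xirp2 did not overlap, Xirp2 with the opposite sign to 12 h. How many of all probes did not overlap at these times was not counted. Xirp2 in WT averaged -0.07, -0.43, -0.03, 1.20 and 1.79, and in KO no time lay outside -0.08 to 0.07. Times of 0.5 and 2 h lie mostly on another set of arrays than the later times, so levels across that step are also levels across array sets.

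**Figure D3:**
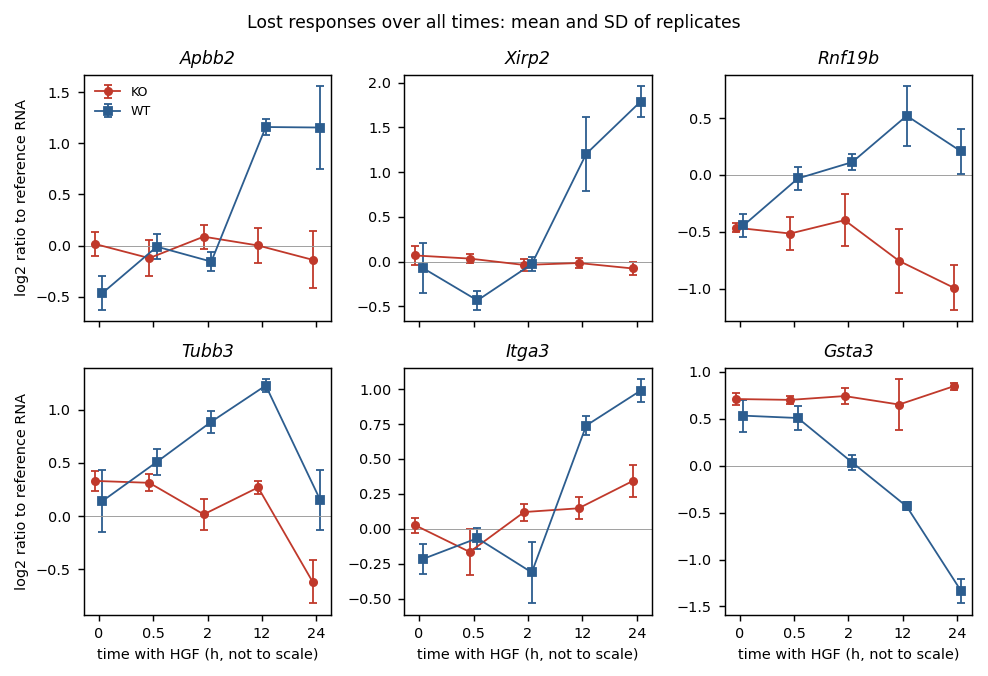
Mean and SD (bars) of the 6 lost genes in KO and WT at 0, 0.5, 2, 12 and 24 h with HGF (log2 ratio to reference RNA; times not to scale). The means of KO and WT lie apart at 12 and 24 h in every panel. At 2 h the test was passed for Tubb3 and Gsta3.

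Several genes, termed just outside here, missed the threshold with an adjusted p of 0.0511 to 0.133 for the difference. Gclc and Dnase1l3, described further on, were at 0.133 too and are not in this set. Clic1, a chloride intracellular channel protein, read -0.21, -0.26 and -0.01 in KO at 12 h, -0.09, -0.31 and -0.30 in untreated KO, 1.22, 1.27 and 1.51 in WT at 12 h, and 0.08, 0.10 and -0.57 in untreated WT. WT at 12 h was again alone, and the difference was -1.39 ± 0.27 (adjusted p = 0.0511). Adh1, the main alcohol dehydrogenase of the liver, read 0.99, -0.05 and 0.51 in KO at 12 h, 0.15, 0.19 and 0.16 in untreated KO, -1.59, -1.42 and -1.28 in WT at 12 h, and -0.64, 0.40 and 0.78 in untreated WT. Its fall was seen in WT, with a difference of 1.92 ± 0.38 (adjusted p = 0.0511). Also outside were Gstm2, a further glutathione transferase (1.13 ± 0.23, adjusted p = 0.0865), Pold1, the catalytic subunit of DNA polymerase delta (-1.04 ± 0.22, 0.0908), Stat4, a cytokine-activated transcription factor (-1.27 ± 0.27, 0.0908), and Msn, moesin, which links actin to the membrane (-1.14 ± 0.24, 0.121). At 24 h, KO against WT was called for Adh1 (2.85 ± 0.27), Gstm2 (2.15 ± 0.16), Clic1 (-1.32 ± 0.19), Stat4 (-1.47 ± 0.19), Msn (-0.89 ± 0.16) and Pold1 (-0.78 ± 0.15), each in the direction of its difference at 12 h. Over all probes, 684 of 18075 were called at 24 h (3.78%). The just-outside set was chosen after its values were seen. Of this set, 4 were not called at 24 h, namely Ccr1l1 (difference -1.27 at 12 h, 24 h adjusted p = 0.784), Eepd1 (-0.73, 0.145), Fzd7 (0.81, 0.269) and Rdh10 (-1.58, 0.14). The adjusted p of the difference at 12 h was 0.0908 for Ccr1l1 and 0.133 for Eepd1, Fzd7 and Rdh10. With each replicate weighted by its group's spread, limma called the difference of Clic1 (adjusted p = 0.0191) and of Adh1, Gstm2, Msn and Rdh10 (0.0373 each). These then counted as lost, and the rest of the set was not called.

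The kept responses were mostly genes that fell in both genotypes, 12 of 14 probes. Of the 14, Isg15, Igtp and Irgm1 are members of the interferon list, where 3 of 26 genes were kept (11.5%), against 13 of 12238 genes tested (0.106%). Irgm2, Ifi35 and Dhx58, which are not in that list, were recognised as interferon-induced only after the class was seen. Isg15 codes for a ubiquitin-like modifier, Igtp, Irgm1 and Irgm2 for immunity-related GTPases, Ifi35 for an interferon-induced protein and Dhx58 for a sensor of viral RNA. Others that fell were Cps1 and Ass1, enzymes of the urea cycle, Uox, which degrades urate, Duoxa2, the maturation factor of a dual oxidase, Camk2b, a calmodulin-dependent kinase, and 1 probe without a gene name. The 2 that rose in both were S100a6, a calcium-binding protein, and Lgals3, galectin-3.

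Isg15 read -2.22, -2.06 and -2.15 in KO at 12 h, -0.95, -0.83 and -0.46 in untreated KO, -2.69, -3.01 and -2.56 in WT at 12 h, and -1.63, -0.26 and -0.45 in untreated WT. Both 12 h groups lay below all untreated replicates. The response was -1.40 ± 0.25 in KO (adjusted p = 0.0177) and -1.98 ± 0.25 in WT (7.66e-05), and the difference was 0.58 ± 0.35, with a 95% interval of -0.14 to 1.30. Igtp read -1.67, -2.03 and -1.92 in KO at 12 h, -0.46, -0.49 and -0.39 in untreated KO, -1.95, -2.36 and -1.77 in WT at 12 h, and -1.07, -0.65 and 0.15 in untreated WT. The genotypes overlapped at 12 h, and the responses were -1.43 ± 0.25 in KO and -1.50 ± 0.25 in WT (difference 0.08, interval -0.64 to 0.80). Irgm1 fell by 1.03 ± 0.19 in KO and by 1.09 ± 0.17 in WT, Irgm2 by 1.26 ± 0.23 and 1.79 ± 0.23, Dhx58 by 1.35 ± 0.27 and 1.36 ± 0.27, and Ifi35 by 0.87 ± 0.18 and 0.82 ± 0.18, KO before WT in each.

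Only genes with a promoter sequence are counted here. The interferon core was found in the promoters of 4 of the 11 kept genes (36.4%), in 12 of 21 genes of the interferon list (57.1%) and in 3.13% of the 9676 tested genes. The 4 are Isg15, Igtp, Irgm1 and Irgm2. Igtp and Irgm2 held the same letters in their matches and may not count as separate cases. Ifi35 held no interferon core, and Dhx58 was not searched. The sequences of the 3 that are members of the interferon list (RefSeq, GRCm38.p6, 5′ to 3′) are shown with matches to any of the 4 motifs in capitals. In Isg15 the capitals hold 3 overlapping copies of the interferon core. In Irgm1 they hold an AP-1 site and then 2 overlapping copies of the core. In Igtp they hold an antioxidant match and then 1 core.
Isg15 (chr4:156200819-156201068, minus strand): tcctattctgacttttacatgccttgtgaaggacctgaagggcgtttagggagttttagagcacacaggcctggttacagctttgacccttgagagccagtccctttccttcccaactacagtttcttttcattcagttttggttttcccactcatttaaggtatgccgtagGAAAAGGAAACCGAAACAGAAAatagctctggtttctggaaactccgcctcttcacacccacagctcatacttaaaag
Irgm1 (chr11:48871421-48871670, minus strand): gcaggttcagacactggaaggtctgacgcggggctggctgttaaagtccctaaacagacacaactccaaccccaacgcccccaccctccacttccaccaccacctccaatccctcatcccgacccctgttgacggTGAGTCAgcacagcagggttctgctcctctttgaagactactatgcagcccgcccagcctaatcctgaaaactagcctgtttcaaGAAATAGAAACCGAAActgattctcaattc
Igtp (chr11:58199306-58199555, plus strand): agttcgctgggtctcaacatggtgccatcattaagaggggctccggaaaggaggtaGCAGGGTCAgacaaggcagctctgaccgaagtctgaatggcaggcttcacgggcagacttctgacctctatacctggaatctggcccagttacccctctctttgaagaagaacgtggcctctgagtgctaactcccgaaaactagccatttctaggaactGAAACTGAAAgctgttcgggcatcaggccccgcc
The cores ended 57 bases before the start in Isg15, 15 in Irgm1 and 25 in Igtp.

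Cps1, which makes carbamoyl phosphate for the urea cycle, read -0.81, -1.16 and -0.99 in KO at 12 h, 0.50, 0.44 and 0.24 in untreated KO, -1.44, -1.29 and -1.61 in WT at 12 h, and -0.41, -0.30 and 0.15 in untreated WT. Both genotypes were lower at 12 h with no overlap, by 1.38 ± 0.23 in KO and 1.26 ± 0.23 in WT (difference -0.12, interval -0.78 to 0.55). Ass1, argininosuccinate synthase, fell by 0.67 ± 0.14 in KO and by 0.68 ± 0.14 in WT, with a difference of 0.01 and an interval of -0.39 to 0.41. Its level was higher in KO at both times, by 0.67 at 12 h (adjusted p = 0.00633) and by 0.66 untreated (adjusted p = 0.106, not called). Duoxa2 read -1.10 and -1.14 in KO at 12 h (n = 2), 0.60, 0.60 and 0.70 in untreated KO, -1.86, -1.83 and -1.41 in WT at 12 h, and 0.11, 0.02 and -0.52 in untreated WT. All 12 h replicates were below all untreated ones, by 1.75 ± 0.21 in KO and 1.57 ± 0.19 in WT, and Duoxa2 was the only kept probe whose interval for the difference, -0.77 to 0.41, lay within 0.5 times its WT response. For the other 13 kept probes the interval reached past that size.

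S100a6 rose in both genotypes. It read 0.58, 0.82 and 0.84 in KO at 12 h, -0.30, -0.43 and -0.42 in untreated KO, 0.16, 0.28 and 0.32 in WT at 12 h, and -1.53, -1.90 and -0.63 in untreated WT. Each genotype was higher at 12 h without overlap, by 1.13 ± 0.23 in KO (adjusted p = 0.0448) and 1.61 ± 0.23 in WT. Lgals3 rose by 0.88 ± 0.16 in KO and 0.67 ± 0.16 in WT. The kept class rests on the KO call and is sensitive to it. Without KO 0 h replicate 1 or 2 only 1 probe was called kept, with the doubted array turned 7 were (4 of them among the 14), and with each replicate weighted by its group's spread 83 were, the 14 included.

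**Figure D4:**
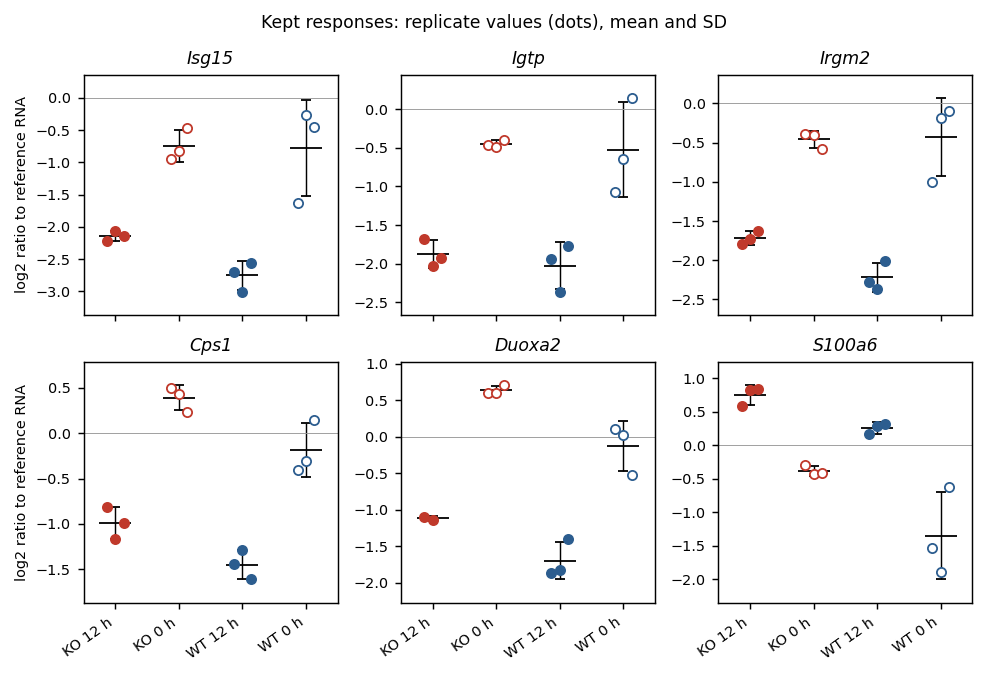
Replicate values (log2 ratio to reference RNA) of 6 kept genes in KO 12 h, KO 0 h, WT 12 h and WT 0 h, with the group mean as a line and the SD as bars. Both 12 h groups lie below both untreated groups for Isg15, Igtp, Irgm2, Cps1 and Duoxa2, and within each genotype 12 h lies above untreated for S100a6.

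The other 3 called differences had no called WT response. Dyrk1a, a protein kinase, was measured by a probe that read -0.83 and -3.18 in KO at 12 h (n = 2), 0.08, 0.27 and 0.05 in untreated KO, 0.39, 0.40 and 0.47 in WT at 12 h, and 0.12, -0.04 and -0.06 in untreated WT. The 2 KO values at 12 h differed from each other by more than the other groups spanned together, and a second Dyrk1a probe (1226107_1) had a difference of 0.13 ± 0.25. 1700001D01Rik, an uncharacterised gene, read 0.21, -0.04 and -0.12 in KO at 12 h, 2.98 and 2.09 in untreated KO (n = 2), -0.03, -0.12 and 0.19 in WT at 12 h, and -0.10, -0.30 and 0.41 in untreated WT. Only untreated KO stood apart, and the difference was -3.91 on Cy5 arrays and 0.51 on Cy3 arrays. Probe 1221191_1, which has no gene name here, read -0.94, -1.33 and -1.40 in KO at 12 h, -0.31, -0.66 and -0.19 in untreated KO, 0.33, 0.08 and -0.21 in WT at 12 h, and -0.41, -0.55 and -0.39 in untreated WT. KO was lower and WT higher at 12 h than untreated, without overlap, and neither response passed (adjusted p = 0.0609 in KO and 0.0955 in WT).

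Gene lists show which kinds of genes made up the larger WT and the smaller KO responses. Medians are of the 12 h response (log2) over the measured members, beside -0.01 for the median difference over all 12238 genes tested. Over all these genes, 291 rose (2.38%) and 377 fell (3.08%) in WT, and 4 rose (0.0327%) and 16 fell (0.131%) in KO, so nothing is read from a count of 0 in KO in a list. Of 12 tubulin genes, 5 rose in WT, 0 in KO, and the median was 0.16 in KO and 0.61 in WT. Tuba1a rose by 1.37 ± 0.27 and Tubb5 by 1.16 ± 0.23 in WT, and their KO values were 0.27 ± 0.30 and 0.30 ± 0.25. Of 36 genes of the actin cytoskeleton, integrins and motility, 10 rose in WT and 0 in KO, with a median of 0.12 in KO and 0.34 in WT. Msn rose by 1.53 ± 0.16, Itgav, an integrin subunit, by 1.37 ± 0.30 and Actn1, which cross-links actin, by 1.33 ± 0.26 in WT, and their KO values were 0.39 ± 0.18, 0.57 ± 0.30 and 0.53 ± 0.26. Of 14 targets of YAP, a transcriptional coactivator that responds to cell shape, 4 rose in WT, among them Ccn2 (2.69 ± 0.45), whose KO value was 0.21 ± 0.50 and whose difference did not pass (adjusted p = 0.306). The difference was called for 1 gene each of the tubulin and actin lists, Tubb3 and Itga3, and for none of the YAP list. With the doubted array turned, the median WT response was 0.49 for tubulins, 0.25 for the actin list and 0.25 for YAP targets. With arrays scaled to 1 spread, the medians were 0.14 in KO and 0.33 in WT for tubulins, 0.14 in KO and 0.16 in WT for the actin list, and 0.06 in KO and 0.37 in WT for YAP targets.

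Genes of hepatocyte function were called lower in WT in several lists, and median responses were nearer to 0 in KO. Of 32 cytochrome P450 genes, the drug- and lipid-oxidising enzymes of the liver, 13 fell in WT and 0 in KO. The median response was -0.46 in KO and -0.75 in WT. The difference was above 0 in 31 of 32, against 5974 of all 12238 genes tested. All were read from the same 12 replicates, so the 31 are not independent results. Cyp2e1, which oxidises ethanol, fell by 1.69 ± 0.24 in WT, and its KO value was -1.13 ± 0.24 (adjusted p = 0.0609). Of 27 complement and coagulation genes 14 fell in WT and 0 in KO, with medians of -0.44 in KO and -0.79 in WT. No difference was called in either list. More KO responses were called in both lists once each replicate was weighted by its group's spread. Among P450 genes these included Cyp2e1 (adjusted p = 0.00628 by limma), Cyp2f2, Cyp2d26, Cyp4b1 and Cyp3a41a. Among complement and coagulation genes they included Plg, F10, F13b and C9. They then counted as kept. With arrays scaled to 1 spread the medians were -0.48 in KO and -0.67 in WT for P450 genes, and -0.43 in KO and -0.54 in WT for complement, with the median difference down to 0.14 and 0.13. Of 44 glutathione and oxidative stress genes, 9 fell in WT and 0 in KO, 1 difference was called (Gsta3), and the median response was 0.05 in KO and -0.20 in WT. In this list the 9 genes that fell in WT had a median KO response of -0.05, against -0.78 in WT, and 6 of the 9 kept the sign. Gclc, which makes the first step of glutathione synthesis, fell by 0.73 ± 0.19 in WT, and its KO value was 0.46 ± 0.19 (difference 1.18 ± 0.27, adjusted p = 0.133). At 12 h, 11 genes of the list were higher and 2 lower in KO than in WT, where 452 of all probes were called (2.49%), 210 higher (1.16%) and 242 lower (1.33%).

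The interferon and the amino acid lists had nearly the same medians over all measured members in both genotypes. Of 26 interferon and antigen presentation genes, 10 fell in WT and 3 in KO, and the median was -0.78 in KO and -0.91 in WT. Ifit1 and Ifit3, interferon-induced proteins that bind viral RNA, had the largest values of the list, -1.997 ± 0.67 and -1.96 ± 0.59 in KO, which did not pass, against -2.75 ± 0.60 and -2.89 ± 0.59 in WT. Of 28 amino acid and urea cycle genes, 10 fell and 1 rose in WT and 2 fell and 1 rose in KO, and the median was -0.42 in KO and -0.44 in WT. Over only the 10 that fell in WT, the median was -0.66 in KO and -0.998 in WT. For the 10 interferon genes that fell in WT it was -1.21 in KO and -1.42 in WT. The gene that rose in KO was Glud1, glutamate dehydrogenase (0.98 ± 0.18, adjusted p = 0.0343), whose WT value was 0.49 ± 0.21. With arrays scaled to 1 spread the medians of the interferon list were -0.84 in KO and -0.51 in WT, so that the order of the genotypes was turned. They were -0.78 in KO and -1.04 in WT with the doubted array turned.

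**Figure D5:**
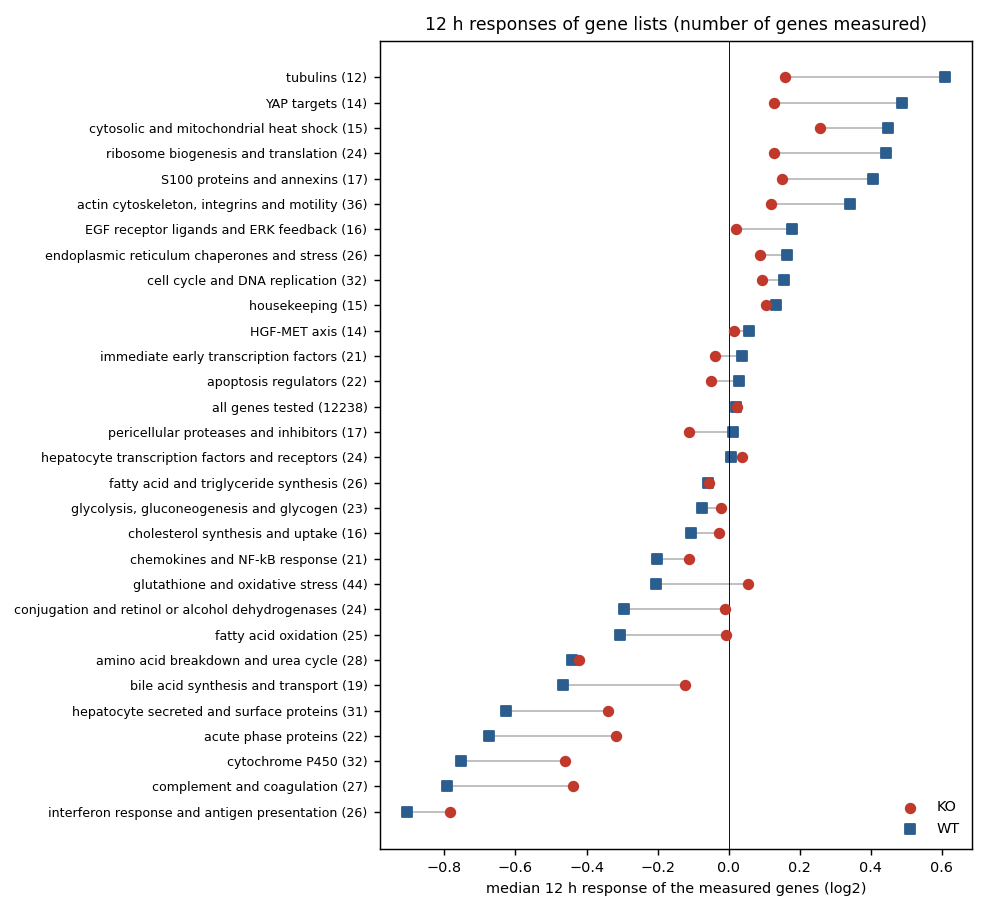
Median 12 h response (log2) of each gene list in KO (circles) and WT (squares), with the number of measured genes in brackets. KO lies nearer to 0 than WT for tubulins, P450 genes and complement, and next to WT for amino acid genes and, at about -0.8 to -0.9, for interferon genes.

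Early targets of growth factors showed little at 12 h. Egr1 had a response of -0.03 ± 0.27 in KO and 0.01 ± 0.27 in WT, and the 2 Fos probes -0.18 ± 0.18 and -0.18 ± 0.17 in KO and -0.04 ± 0.16 and -0.10 ± 0.17 in WT. Of 21 immediate early transcription factors, 2 fell in WT (Btg2 and Atf3) and 0 changed in KO, and of 14 genes of the HGF-MET axis 1 fell in WT, Pik3r1, the regulatory subunit of PI3-kinase. Myc, Hbegf and Plaur had no called response or difference, and Ccnd1 was not tested. Aldh1a1, which makes retinoic acid, was higher in KO at both times, by 2.55 at 12 h (adjusted p = 1.75e-06) and by 1.33 untreated (0.0396), and its difference of responses, 1.22 ± 0.34, did not pass (adjusted p = 0.344).

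Of the marker lists of other liver cells, 2 had replicate means that did not overlap between the genotypes at 12 h. How often 3 against 3 replicates lie apart in any list was not counted, so nothing is read from that number. Fewer cells of a type and less RNA per cell cannot be told apart here. The mean of 8 measured endothelial markers (of 16 listed) was -0.29 to -0.19 in KO at 12 h, -0.12 to -0.01 in untreated KO, -0.00 to 0.09 in WT at 12 h and -0.18 to 0.02 in untreated WT. KO at 12 h lay below every other group's replicates, and Dnase1l3, a secreted nuclease, had the largest difference of these markers (-1.44 ± 0.33, adjusted p = 0.133). Of the 8 differences, 4 were above 0, and their median was -0.02. The mean of 10 stellate cell and fibroblast markers was -0.19 to 0.20 in KO at 12 h, -0.13 to -0.03 in untreated KO, -0.28 to -0.21 in WT at 12 h and -0.16 to 0.21 in untreated WT. Here WT at 12 h was the lowest group. The lists of Kupffer cells (11 markers), bile duct cells (9), lymphocytes (12) and red blood cells (5) overlapped between the genotypes at 12 h. No marker had a called difference of responses, while KO against WT at 12 h was called for Dnase1l3 (-1.32, adjusted p = 0.00203), the lymphocyte marker Cd3g (-0.69, 0.0214) and the bile duct marker Krt23 (0.84, 0.000827). Each was the only called marker of its list, of 8, 12 and 9 measured. Over all probes, 452 of 18155 were called at 12 h (2.49%). These are ratios to hepatocyte RNA, so they do not give the amount of other cells, and their part in the differences above was not tested.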

How the data were processed

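The deposited values are log2 ratios of the 2 channels of each array, normalized by the authors. The log base is read from their range. The normalization, its software and the direction of the ratios are not given in the sources used here. Every array set one sample's RNA against pooled WT hepatocyte RNA, and each replicate had 2 arrays with exchanged dyes, per the labels. The ratios of both arrays were read as sample over reference. Arrays were median-centred, and a replicate's value is the mean of its pair. Testing required values on both arrays in 2 or more replicates of every one of the 4 groups. 1 mean per group was fitted over the replicates of all 10 groups with limma (lmFit and eBayes, two-sided), with Benjamini-Hochberg adjustment over all 18155 probes and 20 residual degrees of freedom. Gene names come from GEO's platform annotation, with 15877 of 16076 single symbols updated through the reference tables. 288 probes had several symbols and 5633 had none. Where a gene list holds a gene with several probes, 1 probe stands for it.

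The rule for named genes took called differences and class members with 1 symbol and the same sign on both dyes, the called or largest members of each gene list, and a panel of 10 genes. Members, lists and tests were chosen with earlier results of these data known. Probes without that rule, the just-outside genes, the list examples and the motif search were chosen after their values were seen. 24 arrays of 4 groups give the comparison, and replicate numbers name cultures of separate mice. The fit was tested on simulated data. Alternatives covered scaling, dye, spread, array set, doubted arrays, filters and leaving out replicates. Precision is limited by 3 replicates per group. Versions were R 4.3.3, limma 3.58.1 and statmod 1.5.0.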

Additional observations from a re-analysis of the deposited data

Results flagged for a closer look

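The 12 h response differed between KO and WT, by limma's test of the difference itself, for 9 probes. Of the lost genes, the differences (log2, KO minus WT response) were -1.64 for Apbb2 (adjusted p = 0.00212), -1.36 for Xirp2 (0.00876), -1.25 for Rnf19b (0.0197), -1.15 for Tubb3 (0.0234), -0.83 for Itga3 (0.0331) and 0.91 for Gsta3 (0.0323). Of the genes without a called WT response, they were -2.53 for 1700001D01Rik (0.00212), where only untreated KO stood apart, -2.55 for Dyrk1a (0.0331), which rests on 2 unequal KO values at 12 h, and -1.36 for probe 1221191_1 (0.0331).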

How the results depend on the processing

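Counts below are of called probes. The difference of the responses (main count 9) was called for 41 with arrays scaled to 1 spread, 51 with single arrays and a dye term, 35 with dye profiles removed, 20 on Cy5 arrays, 0 on Cy3 arrays (1512 at an unadjusted p under 0.05, by limma), 1 on the 12 replicates, 134 with array set as a term, 3 on array set C, 1 with all Cy3 signs turned, 17 at an adjusted p under 0.1, 1 on the 12 replicates weighted by group spread, and 4 without WT 0 h replicate 3 and KO 24 h replicate 2. Of the 9, only 4 were among the 41 scaled, 5 among the 51, 8 among the 35 and 3 among the 20 on Cy5, and scaling ended the calls of Gsta3, Xirp2, Tubb3 and Itga3. In the same settings the WT response (819) had 192 scaled, 1367 with a dye term, 1567 with dye profiles removed, 512 on the 12 replicates, 1456 with array set, 343 on set C, 1500 at 0.1, 282 on the weighted 12 and 389 without both replicates. The KO response (23) had 211 scaled, 12 with 1 orientation enough, 149 with a dye term, 61 with dye profiles removed, 13 on Cy5, 1 on Cy3, 9 on the 12 replicates, 161 weighted by group spread, 178 with array set, 15 on set C, 13 with the sign of 1 array turned, 10 with that array left out, 39 at 0.1, 43 on the weighted 12 and 43 without both replicates. KO against WT at 12 h (452) had 251 scaled, 686 with a dye term, 687 with dye profiles removed, 223 on Cy5, 105 on Cy3, 247 on the 12 replicates, 906 weighted, 1524 with array set and 704 at 0.1. KO against WT untreated (7) had 16 scaled, 3 with 1 orientation, 25 with a dye term, 20 with dye profiles removed, 3 on Cy3, 2 on the 12 replicates, 2 weighted, 190 with array set, 35 on set C, 12 with the sign turned, 4 with that array left out, 0 on the weighted 12 (477 at an unadjusted p under 0.05, by limma) and 51 without both replicates. Lost probes (6) numbered 38 with a dye term, 29 with dye profiles removed, 19 on Cy5, 0 on Cy3, 1 on the 12 replicates, 10 weighted, 90 with array set, 2 on set C, 12 at 0.1, 1 on the weighted 12, 3 without both replicates, 374 by size and 324 by unadjusted p. Kept probes (14) numbered 45 scaled, 93 with a dye term, 34 with dye profiles removed, 8 on Cy5, 1 on Cy3, 6 on the 12 replicates, 83 weighted, 87 with array set, 7 with the sign turned, 5 with that array left out, 25 at 0.1, 31 on the weighted 12, 142 by size and 258 by unadjusted p. The median ratio of KO to WT response (0.372) was 0.485 scaled, 0.236 on Cy5, 0.249 on Cy3, 0.443 on the 12 replicates, 0.316 with array set and 0.479 on the weighted 12. Scaled, 6 probes were lost, of which 2 were among the main 6. With all Cy3 signs turned, 815 WT, 1 KO, 21 at 12 h, 1 untreated, 0 lost and 0 kept were called, and the ratio was 0.128. The causes were not tested.

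Without each replicate in turn, the counts were 3 to 18 for the difference, 307 to 1249 for WT, 2 to 35 for KO, 235 to 584 for KO against WT at 12 h, 2 to 45 untreated, 2 to 12 lost and 1 to 20 kept, and the ratio 0.267 to 0.425. The difference of 1700001D01Rik turned to 0.51 on Cy3 arrays (adjusted p = 0.722). With the replicate number as a block within each genotype, 9 differences were called, as without it, with 810 WT, 23 KO, 448 at 12 h, 6 untreated, 6 lost and 14 kept. Replicate numbers were not used to pair the samples, and 0 of 6 same-numbered pairs correlated above 0.1. With 3 replicates a group, these correlations cannot show whether same-numbered cultures belonged together. The 23 called genes and probes were refitted 707 times in all, of which 460 kept the call, 246 lost it and 1 reversed. Among uncalled named genes, 20 refits brought a call. The alternatives on the weighted 12, both replicates left out, the unadjusted class rule and the turned Cy3 signs beyond the difference were chosen after seeing the data. 3 replicates a group, negative correlation between dyes and 1 array of unsettled direction limit what was detectable.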
